A study of Arabidopsis thaliana with 12 samples.

Results

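The genes described here encode 5 plastid proteins that carry no name beyond their locus in the gene names used here. AT2G35490 encodes a fibrillin, AT1G12800 a plastid protein with an S1 domain, AT1G04420 an oxidoreductase, AT2G27290 a DUF1279 protein and AT4G22830 a YCF20-like protein. They are 5 of the 691 Arabidopsis genes that had an array probe of their own, and each had exactly 1 such probe. They were chosen with their leaf and stem values known, so the differences between the tissues are given as descriptions, with no p-value. Another 2 probes carry the locus of a member together with other loci. Such a probe cannot be assigned to 1 gene, and neither was used.

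The study set stem against leaf in wild-type Columbia 0 plants of Arabidopsis thaliana. Total RNA of leaves (6 samples) and of stem material (6 samples) was measured on single-channel arrays, 1 for each sample. All plants shared this genotype, and the labels give no treatment, age, growth stage or position of the leaf or stem. The samples of each tissue are numbered 1 to 6, but the labels do not say that they came from separate plants, so the spread between them may be technical. Of the 3439 probes, 692 have 1 gene, 870 have several and 1877 are unnamed here.

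The plastid of a green cell houses photosynthesis, but most of its proteins are encoded in the nucleus, made in the cytosol and imported. Fibrillins are lipid-associated proteins of thylakoids and of plastoglobules, the lipid droplets attached to thylakoids. The S1 domain is an RNA-binding fold, found in ribosomal protein S1 of bacteria and in plastid proteins that handle RNA. YCF20 takes its name from an open reading frame of cyanobacteria and of some algal plastid genomes, and DUF1279 is a domain of unknown function. Stem is a green tissue too, with photosynthetic cells beneath its epidermis.

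AT2G35490, AT1G12800 and AT1G04420 were brighter in leaf than in stem. AT2G27290 was brighter in stem, by an amount that depended on the scaling, and AT4G22830, at the top of the scale in 4 arrays, had a mean difference whose sign turned with the scaling. After quantile normalization, which gives all arrays the same distribution of values, the mean log2 value of stem corresponded to a level lower by a factor of 4.50 for AT2G35490, 4.91 for AT1G12800 and 4.44 for AT1G04420. It was higher by a factor of 1.93 for AT2G27290 and 1.15 for AT4G22830. The sizes for the leaf-bright genes also depended on how the values were treated. Over all treatments, stem minus leaf (log2) ran from -3.06 to -1.51 for AT2G35490 and from -3.56 to -1.37 for AT1G04420. For AT1G12800 it ran from -2.64 to -2.08. In bulk tissue, fewer cells of a type and less RNA per cell cannot be told apart.

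The deposited intensity is a linear value between 0 and 100, and all 5 probes were above 0 in all 12 arrays, as were 1870 probes of the array. The arrays differed in their overall level: the median intensity was 0.104 to 0.154 in leaf arrays and 0.154 to 0.324 in stem arrays. Leaf arrays had 658 to 785 probes at 0 and stem arrays 479 to 536. The median difference between stem and leaf over all 2657 tested probes was 0.62 (log2) in deposited values, 0.13 after quantile normalization and 0.060 with each array centred on its median. Samples 1 and 2, 3 and 4, and 5 and 6 of a tissue were closest to each other, although the labels say nothing of such pairs. Over 1870 probes, leaf neighbours had rank correlations of 0.858 to 0.887, where other leaf samples had 0.681 to 0.808. Stem neighbours had 0.966 to 0.983, where other stem samples had 0.820 to 0.905. Values are therefore also given within these pairs of numbers. The tissue labels could be checked against few markers: of the marker genes listed for stem wall and vascular tissue (23), guard cells (5) and flowers (6), none was named on a probe. Of the genes listed for leaf mesophyll, 4 of the light reactions and 1 of the Calvin cycle were tested. Their median differences, stem minus leaf, were 0.0054 and -0.096 after quantile normalization, and -0.75 and -0.77 with median centring. A higher level in leaf thus appeared only with some scalings.

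AT2G35490, the fibrillin gene, had a deposited intensity of 0.170 at the lowest, 0.287 at the median and 0.421 at the highest in leaf arrays. In stem arrays it ran from 0.0557 through a median of 0.102 to 0.148. Every leaf array was above every stem array, and the medians differed 2.80-fold. On the normalized log2 scale the leaf mean was -1.59 ± 0.48 and the stem mean -3.76 ± 0.71 (SD, n = 6 each). The difference, stem minus leaf, was -2.17 ± 0.37 (SE). Stem was the lower tissue in 6 of 6 numbers.

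The fibrillin probe also changed its standing within the array, a measure that no scaling of an array can alter. Its median percentile among the 3439 probes was 71.7 in leaf arrays (58.3 to 78.9) and 32.3 in stem arrays (20.8 to 41.4). It thus lay above the middle of the array in each leaf sample and below it in each stem sample. Ranked only among the 1870 probes above 0 in all arrays, its medians were 52.0 in leaf and 7.78 in stem. Within the pairs of numbers, the leaf mean intensity was 2.96-fold (1 and 2), 3.39-fold (3 and 4) and 2.35-fold (5 and 6) that of stem. The lowest leaf value belonged to sample 1 and the lowest stem value to sample 2.

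AT1G12800, the gene of the S1-domain protein, had intensities of 0.711 to 3.06 in leaf with a median of 1.37. In stem they were 0.122 to 0.853 with a median of 0.399. The tissues overlapped in deposited values, because the highest stem sample, number 4, stood above leaf samples 1 and 2. They did not overlap after normalization, where the leaf mean was 0.58 ± 0.65 and the stem mean -1.71 ± 0.86 (SD, n = 6 each). Stem minus leaf was -2.30 ± 0.39 (SE).

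In normalized log2 values the difference of AT1G12800 was of similar size within each pair of numbers, at -2.53, -2.15 and -2.21. In deposited values the leaf mean was 5.78-fold, 3.74-fold and 3.42-fold that of stem. Stem minus leaf in percentile was -42.8, -16.5 and -24.8 points, so on these scales the first pair differed most. The level varied too. In leaf its mean intensity was 0.773 in numbers 1 and 2, 2.998 in 3 and 4 and 1.37 in 5 and 6. In stem the same pairs had 0.134, 0.801 and 0.399, so the pairs stood in the same order in both tissues. Its percentile ranged from 87.8 to 96.1 in leaf and from 43.2 to 81.1 in stem, with medians of 93.7 and 68.9, or 88.5 and 48.5 among the probes above 0 in all arrays. Among the 3 leaf-bright probes it had the widest spread within a tissue in deposited values, with a coefficient of variation of 60.3% in leaf and 69.0% in stem.

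AT1G04420, the oxidoreductase gene, had intensities of 0.194 to 0.403 in leaf, with a median of 0.243. In stem the lowest was 0.0577, the median 0.0928 and the highest 0.201. Stem sample 2, the highest of its tissue, was just above leaf sample 2, the lowest of its own, so the tissues touched in deposited values. After normalization leaf was at -1.72 ± 0.31 and stem at -3.87 ± 1.18 (SD over 6 samples), with no overlap, and stem minus leaf was -2.15 ± 0.47 (SE). The stem spread was larger than that of leaf by this measure.

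The spread of AT1G04420 in stem came with the numbers. Stem samples 1 and 2 had 0.124 and 0.201, while stem samples 3 to 6 had 0.0983, 0.0763, 0.0873 and 0.0577. Stem minus leaf was -0.53 (normalized log2) in the first pair of numbers, -3.21 in samples 3 and 4 and -2.72 in samples 5 and 6. Its median percentile was 68.3 in leaf (62.5 to 74.6) and 26.3 in stem (19.1 to 56.6), or 46.9 and 3.61 among the probes above 0 in all arrays. Without the samples numbered 1 and 2 its difference was -2.86, against -2.40 for AT2G35490 and -2.15 for AT1G12800.

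**Figure D1:**
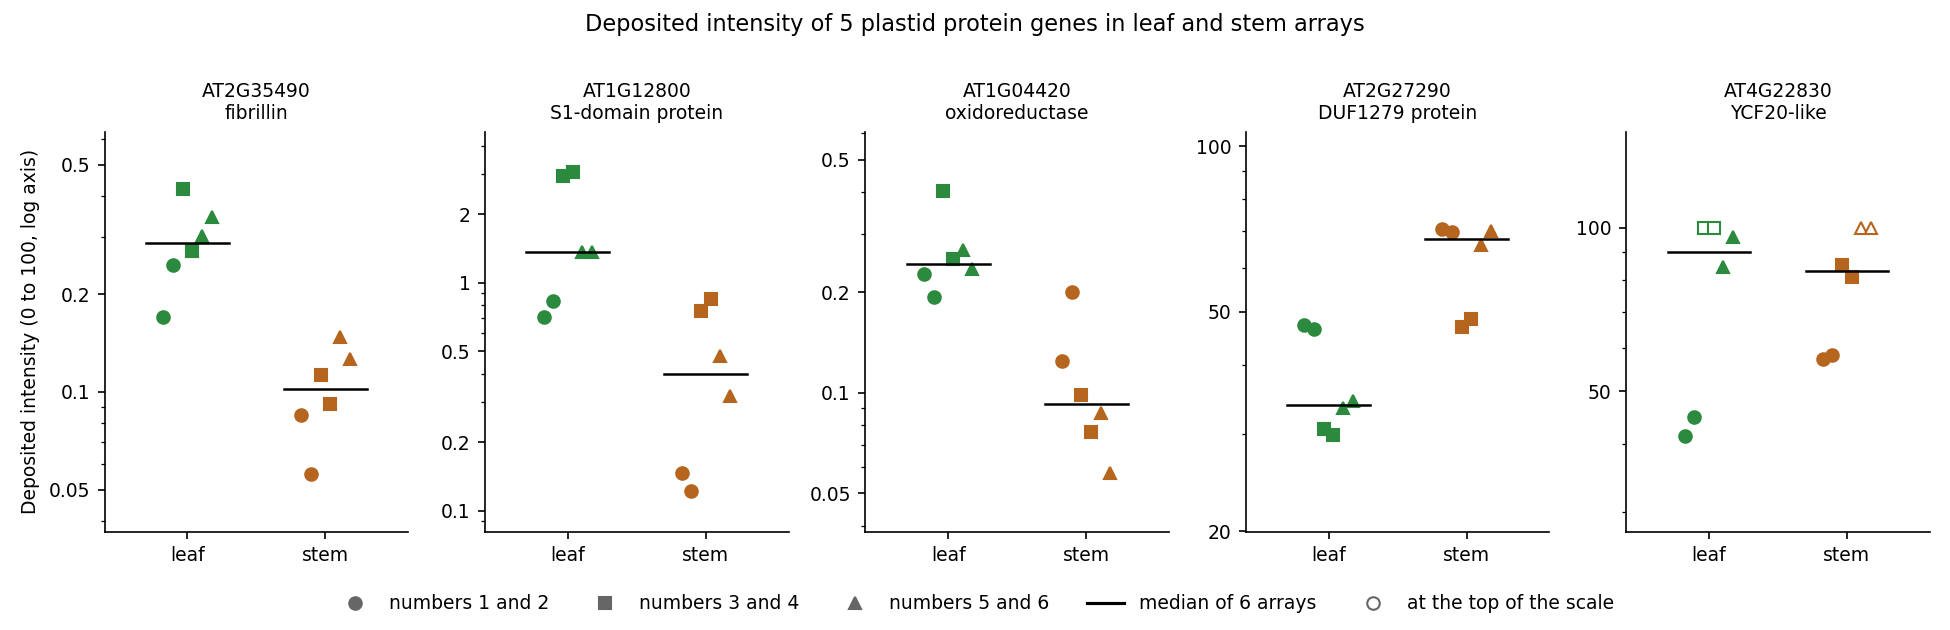
Deposited intensity (log axis, 0 to 100 scale) of the 5 genes in 6 leaf and 6 stem arrays, each panel with its own range. Symbols mark the pairs of numbers, lines the median and open symbols the top of the scale; for AT2G35490 all leaf values, from 0.170, lie above all stem values, which reach 0.148.

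AT2G27290, the DUF1279 gene, was the only one of the 5 whose stem intensity exceeded that of leaf in every number. Its intensity in leaf was 29.9 at the lowest, 33.9 at the median and 47.3 at the highest. In stem it was 47.0, 67.9 and 70.7. The tissues overlapped by a narrow margin, since leaf sample 1 was above stem sample 3. The normalized leaf mean was 5.02 ± 0.34 and the stem mean 5.97 ± 0.31 (SD over 6 samples), with no overlap. Stem minus leaf was 0.95 ± 0.19 (SE).

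The probe of AT2G27290 was among the brightest on every array, at place 14 to 22 from the brightest in leaf and 8 to 14 in stem. Its difference within the pairs of numbers was 0.88, 0.97 and 0.99 on the normalized log2 scale. With median centring it was 0.40, -0.087 and 0.25, so stem was not higher in numbers 3 and 4 there. The size of this difference depended on the scaling. It was 0.75 in deposited values, where the median of all tested probes was itself higher in stem by 0.62, and 0.19 with each array centred on its median. Relative to the median of all tested probes it was 0.82 after quantile normalization, 0.12 in deposited values and 0.12 with median centring.

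AT4G22830, the YCF20-like gene, had a probe near the upper end of every array that reached the top of the scale in 2 leaf and 2 stem arrays. Its intensity in leaf was 41.4 at the lowest, 90.3 at the median and 100 at the highest, and in stem 57.2, 83.2 and 100. Leaf samples 3 and 4 and stem samples 5 and 6 were at 100, where the value is only a lower bound. In each array 3 to 7 probes shared that value. Numbers 1 and 2 were far from that bound in both tissues, and there the mean intensity was 43.1 in leaf and 57.8 in stem, a 1.34-fold difference. Stem minus leaf in that pair was 0.60 after quantile normalization, 0.42 in deposited values and 0.24 with median centring.

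The tissues overlapped for AT4G22830 on every scale. The normalized leaf mean was 6.05 ± 0.77 and the stem mean 6.25 ± 0.46 (SD over 6 samples). Stem minus leaf was 0.20 ± 0.32 (SE), which turned to -0.46 with each array centred on its median. Both values rest on 4 arrays at the top of the scale. The differences within numbers 3 and 4 and within 5 and 6 are not given as sizes, because in each of these pairs 1 tissue had only a lower bound. The median percentile was 99.8 in both tissues, with places 1 to 17 in leaf and 1 to 13 in stem.

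**Figure D2:**
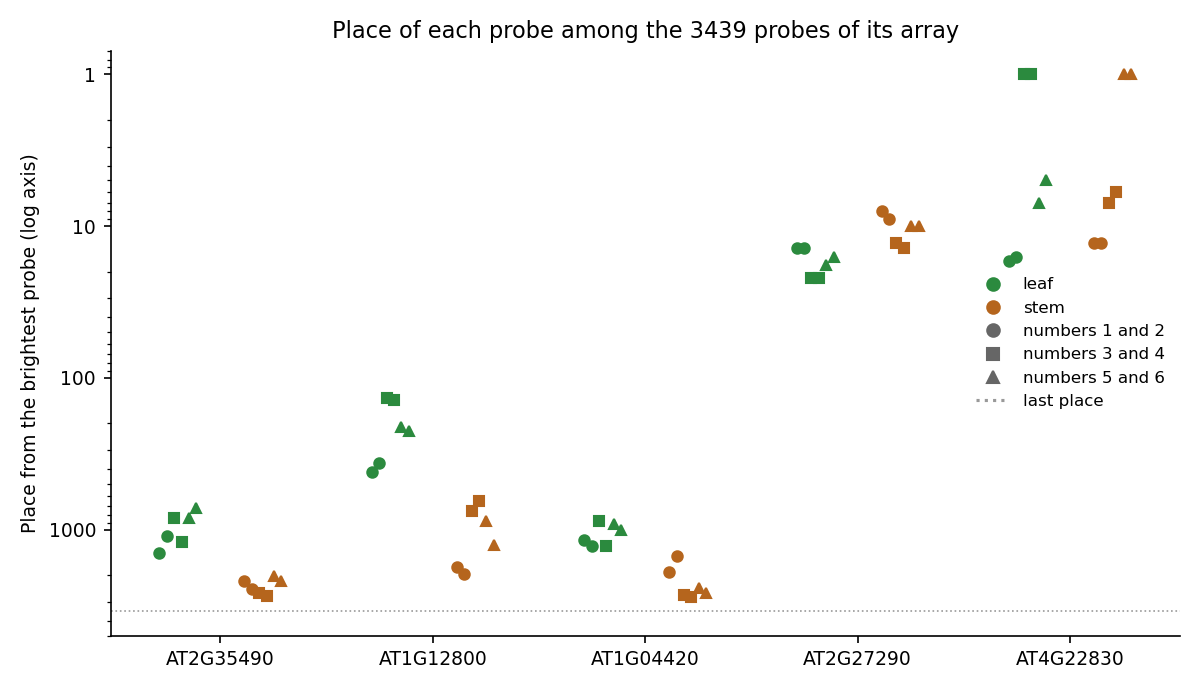
Place of each of the 5 probes among the 3439 probes of its array, counted from the brightest (log axis, brightest at the top), in 6 leaf and 6 stem arrays. AT2G35490, AT1G12800 and AT1G04420 stand further from the top in every stem array than in any leaf array, while AT2G27290 and AT4G22830 stay within places 1 to 22.

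Percentile within the array gives the contrast without any scaling between arrays, but it also depends on how well each probe hybridises, so it is compared only for the same probe between tissues. By this measure 3 of the 5 genes had no overlap between leaf and stem, all with leaf higher, which holds for 11.1% of the 1870 probes above 0 in all arrays. In deposited values only AT2G35490 (1 of 5) had no overlap, where 5.78% of probes lie wholly higher in leaf. In normalized values 4 of 5 had none, 3 with leaf higher (8.13% of probes) and 1 with stem higher (8.24%). In a limma fit, 643 of the 2657 tested probes (24.2%) had a Benjamini-Hochberg adjusted p under 0.05, and 45 did with neighbouring numbers averaged. In the fit without averaging, after quantile normalization, 3 of the 5 genes were among the 10.1% that passed as lower in stem. AT2G27290 was among the 14.1% that passed as higher there, and AT4G22830 did not pass. These calls are those of that fit only. With neighbouring numbers averaged, 18 probes passed as lower and 27 as higher. Whether any of the 5 genes was among them is not given here. With median centring the difference of AT2G27290 was 0.19, and its call in that scaling is not given either. Because the members were chosen on this contrast, nothing is read from these counts.

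**Figure D3:**
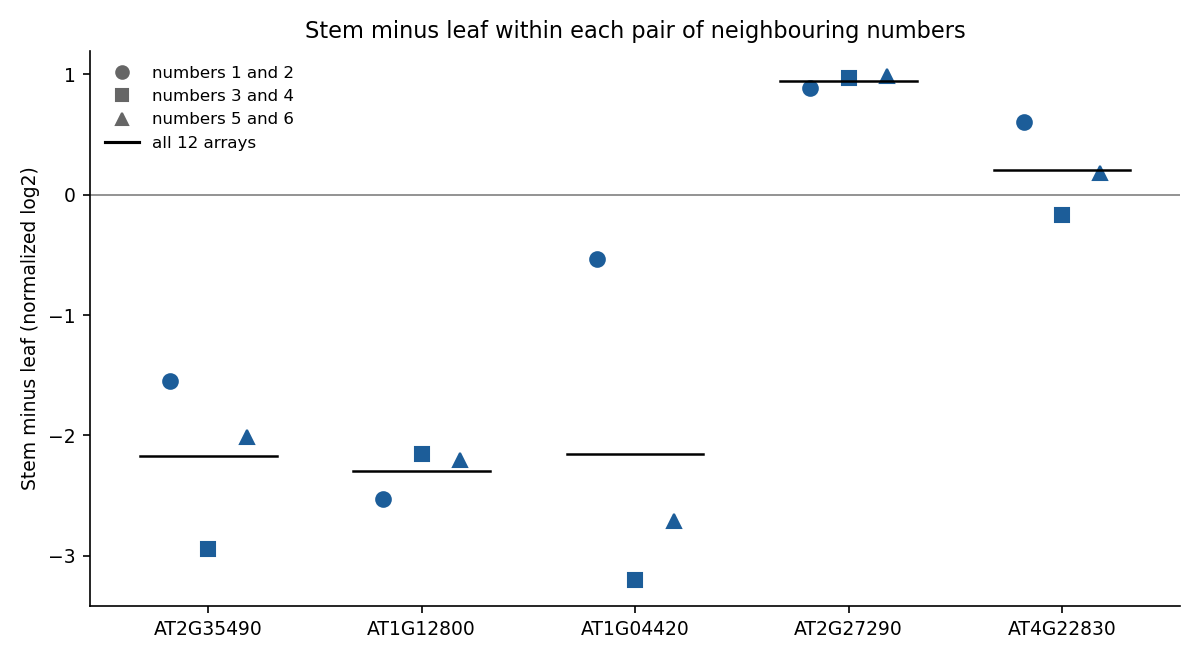
Stem minus leaf (normalized log2) of each gene within numbers 1 and 2, 3 and 4, and 5 and 6, with lines for all 12 arrays. In these normalized values AT1G12800 and AT2G27290 keep a similar difference in each pair, and AT1G04420 runs from -3.21 to -0.53. AT4G22830 has 1 tissue at the top of the scale in the pairs 3 and 4 and 5 and 6. Only its first pair is measured on both sides, and its other points are not read as sizes.

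Ordered by their differences, the 3 leaf-bright genes stood at place 38 (AT1G12800), 53 (AT2G35490) and 55 (AT1G04420) of 2657 from the most negative. Their differences lay within 1 SE of each other. AT2G27290 stood at place 537 from the most positive and AT4G22830 at place 1229. The differences relative to the median of all tested probes were -2.30, -2.14 and -2.14 for AT2G35490 after quantile normalization, in deposited values and with median centring. They were -2.42, -2.71 and -2.70 for AT1G12800, and -2.28, -1.995 and -1.99 for AT1G04420. For AT4G22830 they were 0.076, -0.52 and -0.52, so its sign turned with the scaling, on values that include the 4 arrays at the top of the scale.

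**Figure D4:**
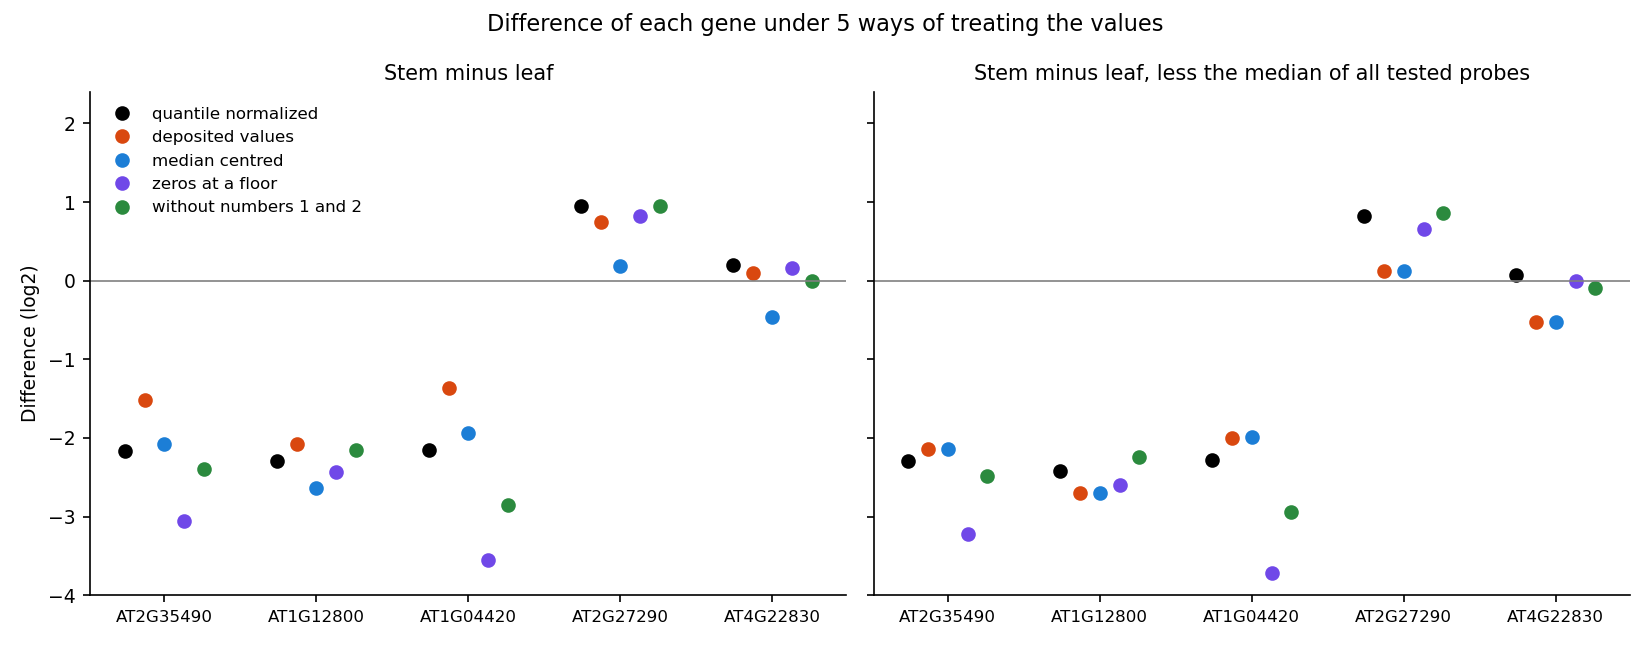
Stem minus leaf (log2) of each gene with quantile normalization, deposited values, median centring, zeros at a floor and without numbers 1 and 2, as measured (left) and less the median of all tested probes (right). The 3 leaf-bright genes are negative throughout, AT2G27290 nears 0.12 in the right panel for deposited and median-centred values, and AT4G22830 changes sign.

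How the genes varied among themselves within a tissue was not used in choosing them. Neighbouring numbers agreed closely for the bright probes: those of AT2G27290 differed by at most 1.06-fold, and those of AT4G22830 by up to 1.14-fold in the pairs below the top of the scale. Leaf samples 3 and 4 and stem samples 5 and 6 of AT4G22830 shared the top value and say nothing of agreement. For the dim probes of AT2G35490 and AT1G04420 neighbours differed by up to 1.55-fold and 1.62-fold. For AT1G12800 the largest neighbour difference, 1.49-fold in stem samples 5 and 6, was small against its 7.02-fold range within stem.

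AT1G12800 and AT2G27290 varied in opposite ways. In leaf, AT2G27290 had mean intensities of 47.0, 30.3 and 33.9 in the 3 pairs of numbers, and in stem 70.3, 47.8 and 68.0, so the pairs stood in the reverse of their order for AT1G12800 in both tissues. Over the 12 deviations from the tissue means (normalized log2) the 2 genes correlated at r = -0.915 and rho = -0.895. The correlation was -0.974 within leaf, -0.894 within stem and -0.945 over the 6 averages of neighbouring numbers. AT1G12800 and AT4G22830 deviated in the same direction (r = 0.823, rho = 0.538), and AT2G27290 and AT4G22830 in opposite directions (r = -0.751, rho = -0.671). Neighbouring samples are no independent points, and all genes share the arrays and their scaling, so these correlations are descriptions. The ceiling of the scale also limits the values of AT4G22830 in 4 arrays.

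Among the 3 leaf-bright genes all pairwise correlations were positive within leaf, and the signs were mixed within stem. AT2G35490 and AT1G04420 deviated alike (r = 0.493, 0.759 within leaf and 0.479 within stem). AT1G12800 and AT1G04420 deviated in opposite directions overall (r = -0.649), with 0.345 within leaf and -0.915 within stem. AT2G35490 and AT1G12800 had r = -0.178, with 0.430 within leaf and -0.490 within stem.

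The genes most like each member were sought among the 350 other single-gene probes above 0 in all arrays, by the correlation of the 12 deviations. Being the highest picked from 350, such values are large in part through the search, and none was tested. AT1G73470 (r = 0.904), AT1G32730 (0.879) and AT1G54500 (0.832) came first for AT2G35490. For AT1G12800 they were NdhS (0.890), a subunit of the chloroplast NADH dehydrogenase-like complex, AT4G18180 (0.861) and AT5G10920 (0.854). XERICO (0.956), a RING-type zinc finger gene, CYN (0.868), the cyanase gene, and AT2G23390 (0.864) came first for AT1G04420.

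AT2G02590 (0.895), AT2G31800 (0.877) and SIS (0.875) were most like AT2G27290. AT2G46630 (0.987), AT1G06730 (0.956) and CCL (0.948) were most like AT4G22830. Likeness within tissues did not always go with a like tissue difference: NdhS was higher in stem by 0.53 (normalized log2), where AT1G12800 was lower by 2.30. XERICO, at -2.55, differed between the tissues in the direction of AT1G04420. CCL was at -1.15, against 0.20 for AT4G22830.

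The relatives of the members were few on the array. The lists of relatives were chosen with earlier results of these data known, so their adjusted p-values are given as descriptions. Of 14 fibrillin-family loci listed from general knowledge, 5 had their own probe and 4 were tested, AT2G35490 among them. The median difference of the 3 others was -0.91 (normalized log2), against 0.13 over all tested probes. Of these 3, only AT5G19940 passed, with -0.91 ± 0.30 (SE, limma adjusted p = 0.036, 6 values in each tissue), where 10.1% of all tested probes passed as lower in stem.

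AT5G19940 overlapped between the tissues, with intensities of 0.105 to 0.327 in leaf and 0.0648 to 0.323 in stem. Its call was lost in deposited values (-0.37, limma adjusted p = 0.56), with median centring (-0.93, adjusted p = 0.055) and when neighbours were averaged (-0.91, adjusted p = 0.28). It held with zeros at a floor (-1.16, adjusted p = 0.020). AT5G09820 differed by -1.07 ± 0.70 (adjusted p = 0.29), with 4 values above 0 in leaf and 5 in stem. AT1G51110 differed by 0.11 ± 0.45 (adjusted p = 0.88) and was at -0.49 with zeros at a floor.

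AT2G46910 was not tested, because 3 of its 6 leaf values were at 0. Its leaf values reached 0.0360, and its stem values ran from 0.0251 to 0.341 with a median of 0.123.

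Lists around the other members held fewer measured genes. Of 22 listed genes of plastid transcription, 5 plastid S1-domain loci and 4 YCF20-like loci, the single member was in each case the only one with a probe of its own. Of 9 aldo-keto reductase loci, the list in which AT1G04420 was placed from general knowledge, AT2G27680 also had a probe. It was above 0 in 4 leaf arrays and 1 stem array, too few for a test. Of 16 plastoglobule genes, AT3G24190 was tested besides AT2G35490 and differed by 0.29 ± 0.43 (adjusted p = 0.66).

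Few other listed genes of the photosynthetic plastid could be tested. These lists too were chosen with earlier results of these data known, so the adjusted p-values are descriptions. CHLM, a methyltransferase of chlorophyll synthesis, was the only one of 18 listed genes of that pathway to be tested, and differed by 0.15 ± 0.23 (limma adjusted p = 0.67). Of 43 listed genes of the light reactions 4 were tested. Of these, 1, PSBW of photosystem II, passed as higher in stem (limma adjusted p = 0.013), as did 14.1% of all tested probes. The call of PSBW held in deposited values (adjusted p = 0.014) and with zeros at a floor (0.027). It was lost with median centring (0.17) and with neighbouring numbers averaged (0.14). In stem the intensity of PSBW reached 100, the top of the scale. The median difference of the 4 genes was 0.0054, or -0.75 with median centring. Of 17 Calvin cycle genes only PRK, phosphoribulokinase, was tested (-0.096 ± 0.15, adjusted p = 0.69). With median centring PRK passed as lower in stem (-0.77, adjusted p = 0.011), as did LHB1B2 (-1.21, adjusted p = 0.0019) and PSBY (-0.87, adjusted p = 0.0021), both of the light reactions. In that scaling 324 of all 2657 tested probes passed as lower. The 3 leaf-bright members were at -2.08, -2.64 and -1.93 there. They were chosen on this contrast, so their sizes cannot be set against those of PRK, LHB1B2 and PSBY. In deposited values LHB1B2 also passed as lower (-0.65, limma adjusted p = 0.0030), while PRK (-0.21, adjusted p = 0.28) and PSBY (-0.31, adjusted p = 0.13) did not.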

How the data were processed

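The authors deposited 1 table of linear intensity values, 0 to 100, for 3439 probes and 12 samples; how background and scale were treated, and what a 0 stands for, is not given in the sources used here. Tissue and number were taken from the labels. Values were converted to log2 with zeros as missing and, since array medians spanned 1.42, above the limit of 0.2, quantile normalized. Probes with at least 4 values above 0 in each tissue were tested in limma 3.58.1 (lmFit, eBayes with trend and robust variance, R 4.3.3, statmod 1.5.0), two-sided, with Benjamini-Hochberg adjustment over 2657 probes. The fit was also tested on simulated data. The simulated samples were independent of each other, so this cannot show how the fit behaves where neighbouring samples are alike. The number of arrays limits the precision.

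Probes were named by the array's gene table, updated by locus through RefSeq (TAIR10.1, names only); all 5 members matched. Where a listed gene had several probes, the brightest stood for it. The percentile is the share of probes with a lower value, with tied ranks averaged. Tables were handled in pandas 2.3.3 and scipy 1.17.1, and figures drawn with matplotlib 3.10.9.

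Named were the 5 members, the 3 genes most like each, and the listed genes with a probe of their own. The members and lists were chosen with earlier results of these data known. Same-numbered leaf and stem samples deviated together (r = 0.17 to 0.26 over 1870 probes, while samples of different number had -0.17 to 0.15). All 6 exceeded 0.1, the limit set for treating the numbers as a pairing. The highest value of different number, 0.15, exceeded it too, so this limit alone does not show that the numbers pair the samples. Every same-number value, from 0.17, still lay above every value of different number. The possible pairing comes from the data, not the labels. The main model leaves the number out, and a block for it was an alternative. The SEs and adjusted p-values given from the main model therefore treat the samples as separate and unpaired.

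Alternatives were other scalings, filters, a floor for zeros, another variance model, a block for the number, averaged neighbours and samples left out.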

Additional observations from a re-analysis of the deposited data

How the results depend on the processing

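Of 75 alternative values of the 5 differences, 25 could not move, because the block, the variance model, both filters and the averaging leave the mean difference of a gene with 12 values as it is. Of the other 50, 45 moved by less than 1 SD between replicates. AT2G35490 was at -1.51 in deposited values and -3.06 with zeros at a floor, which also moved AT1G04420 to -3.56. With each array centred on its median, AT2G27290 was at 0.19 and AT4G22830 at -0.46. Leaving out each number in turn gave -2.37 to -2.02 for AT2G35490, -2.39 to -2.19 for AT1G12800, -2.52 to -1.94 for AT1G04420, 0.92 to 0.97 for AT2G27290 and 0.11 to 0.29 for AT4G22830. The differences of AT2G35490, AT1G12800 and AT1G04420 stayed negative and that of AT2G27290 positive in every alternative that could move them. The count of probes past the threshold, 643, was 45 of 2657 with neighbouring numbers averaged. That fit has fewer samples, while the main fit counts neighbouring samples as separate although they were closest to each other. Which of the 2 lowered the count was not tested. Without 1 number the count was 374 to 655, but the neighbour of the number left out stayed in the fit. With the replicate number as a block (replicate block) the count was 708. The share of calls higher in stem moved with the scaling: 374 higher and 269 lower after quantile normalization, 675 and 160 in deposited values, 272 and 324 with median centring, 198 and 266 with zeros at a floor. Of 90 percentile values, 81 moved by less than 1 SD; the other 9 came from ranking only probes above 0 in all samples, where dim probes are left out. The top of the scale limits AT4G22830 in 4 arrays. Causes of the differences were not tested.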
